A study of Mus musculus with 22 samples.

Results

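The A20 and TRAF ubiquitin feedback genes were followed in mouse bone marrow-derived macrophages given lipopolysaccharide (LPS), lactic acid (LA), or both. The group held 8 genes, taken by symbol from the expression table of 16059 genes: Tnfaip3, Tnip1, Tnip3, Traf1, Traf2, Traf6, Birc3 and Cyld. All 8 were in the table and all 8 passed the filter on low counts.

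The macrophages were phagocytes grown from the marrow of C57/BL6 mice over 7 days, with L929 supernatant as the source of macrophage growth factor, and were treated for 3 h. RNA-seq covered 5 groups of 2 libraries: untreated control, LA alone, LPS alone (100 ng/ml), LPS+LA (100 ng/ml with 10 mM L-(+)-lactic acid) and LPS+HCl, in which hydrochloric acid took the place of LA. ATAC-seq, which maps open chromatin by the cuts of a transposase, covered control, LA, LPS and LPS+LA with 3 samples each. The dose of LA alone and the pH with LA are not stated in the labels, which give pH 6.5 as an example for HCl. Separate cultures or animals are not named for the replicates either, so each p-value speaks of the spread among these samples alone, part or all of which may be technical.

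When LPS binds its Toll-like receptor, adaptors bring in TRAF6, a ubiquitin ligase whose chains recruit the kinases that release NF-kB. TRAF2 and cIAP2, the product of Birc3, do the same job downstream of TNF receptors, and TRAF1 is a TRAF without a ligase domain that joins TRAF2 and the cIAPs. A20, the product of Tnfaip3, edits and removes such chains, ABIN-1 (Tnip1) and ABIN-3 (Tnip3) bind ubiquitin and work with A20, and CYLD cuts the chains. Several of these genes are NF-kB targets, and through A20, which removes the chains, the circuit is known as negative feedback.

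The RNA libraries held 18668648 to 20219888 counts, and the ATAC samples 76680 to 100667 called peaks. Summed macrophage markers ran from 13855 to 19776 CPM (counts scaled to a common library size after TMM, a trimmed-mean factor per library), with all 10 markers counted in every library. The 9 lists for other cells summed to at most 5.95 CPM, save neuron markers, which stood apart in 2 libraries. These were control replicate 1, with 6.83 CPM, and replicate 2 of LPS+HCl, with 18.3 CPM, and the other 8 libraries had at most 1.5 CPM. T cell markers were highest in LPS (4.08 and 5.95 CPM) and lowest in control (0.485 and 0.361 CPM), but 2 of the 3 in the table were at 0 in every library except control replicate 1. The part of these transcripts in the results was not tested. In bulk RNA, fewer cells of a type and less RNA per cell cannot be told apart.

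The bases just before 4 of the gene starts are shown, and each lies, in whole or in large part, under a merged ATAC site. Such a site joins the overlapping peaks of all samples, and these sites had a peak in all 12. The bases before Traf2, Traf6 and Cyld lay under such sites too and are not shown. Of the 4 shown, 3 hold a match to the NF-kB (kB) motif in these bases. Sequences are from RefSeq, build GRCm38.p6, 5′ to 3′ on the gene's strand, with bases inside the annotated gene left out. Capitals mark matches to kB or to the AP-1 motif TGANTCA, searched on both strands. Tnfaip3 is shown from chr10:19015411-19015660 (minus strand), Tnip1 from chr11:54962957-54963190 (minus strand), Tnip3 from chr6:65590148-65590397 (plus strand) and Birc3 from chr9:7873206-7873420 (minus strand).
Tnfaip3: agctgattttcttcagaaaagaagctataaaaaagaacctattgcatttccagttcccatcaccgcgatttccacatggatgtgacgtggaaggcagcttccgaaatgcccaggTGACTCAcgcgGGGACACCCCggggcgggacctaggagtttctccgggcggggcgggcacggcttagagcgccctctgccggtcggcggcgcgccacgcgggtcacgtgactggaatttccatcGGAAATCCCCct
Tnip1: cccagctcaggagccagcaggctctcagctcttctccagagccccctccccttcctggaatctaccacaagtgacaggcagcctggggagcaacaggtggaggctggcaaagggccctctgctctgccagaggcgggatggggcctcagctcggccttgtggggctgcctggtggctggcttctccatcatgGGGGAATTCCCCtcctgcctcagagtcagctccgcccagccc
Tnip3: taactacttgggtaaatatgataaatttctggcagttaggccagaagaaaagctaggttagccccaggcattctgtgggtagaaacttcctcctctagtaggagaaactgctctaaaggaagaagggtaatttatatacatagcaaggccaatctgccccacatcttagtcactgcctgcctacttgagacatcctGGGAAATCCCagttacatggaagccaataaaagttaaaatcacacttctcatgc
Birc3: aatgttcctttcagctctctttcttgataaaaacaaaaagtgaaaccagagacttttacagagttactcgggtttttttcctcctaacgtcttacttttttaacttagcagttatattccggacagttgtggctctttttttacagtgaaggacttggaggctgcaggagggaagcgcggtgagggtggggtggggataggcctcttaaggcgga

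Counted back from the start, with -1 as the last base before it, Tnfaip3 had an AP-1 match at -136 to -130 and kB matches at -125 to -116 and at -12 to -3, the latter on the opposite strand. Tnip1 had 3 overlapping kB matches within a single palindromic run, the outermost at -58 and -47, and Tnip3 had 1 match, GGGAAATCCC, at -54 to -45. In the 250 bases before all 9 listed starts of the 8 genes, 4 windows held a kB match, against 3.90% of 32851 windows of that length. The fourth was Cyld, at -155 to -146. An AP-1 match was present in 1 of 9 windows (6.75% of all windows), and the cyclic AMP response element TGACGTCA in 0 of 9 (1.55% of all). The second start of Tnfaip3 and the windows of Birc3, Traf1, Traf2 and Traf6 held none of these letters. A match is a description of the sequence, not a measured binding site.

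In resting macrophages Tnip1 was the highest of the 8 per length, at 45 ± 6.84 FPKM (SD, n = 2), and Traf1 the lowest, at 4.42 ± 0.509. Tnip3 (18.7 ± 1.65) and Birc3 (13.2 ± 0.438) came next to Tnip1, and Traf2, Traf6, Tnfaip3 and Cyld lay between 5.96 and 8.90 FPKM. With LPS the order turned over. Tnfaip3 led at 425 ± 6.20 FPKM and Traf1 came second at 262 ± 12.4, ahead of Tnip1 (199.9 ± 4.91), Tnip3 (162 ± 3.49) and Birc3 (144 ± 0.834). Traf6 and Cyld stayed at 6.73 ± 0.276 and 5.22 ± 0.417 FPKM, so the TRAF that starts the Toll-like receptor signal was among the least abundant of these RNAs, while the gene for A20 was the most abundant. TPM, also deposited, gave the same order.

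**Figure D1:**
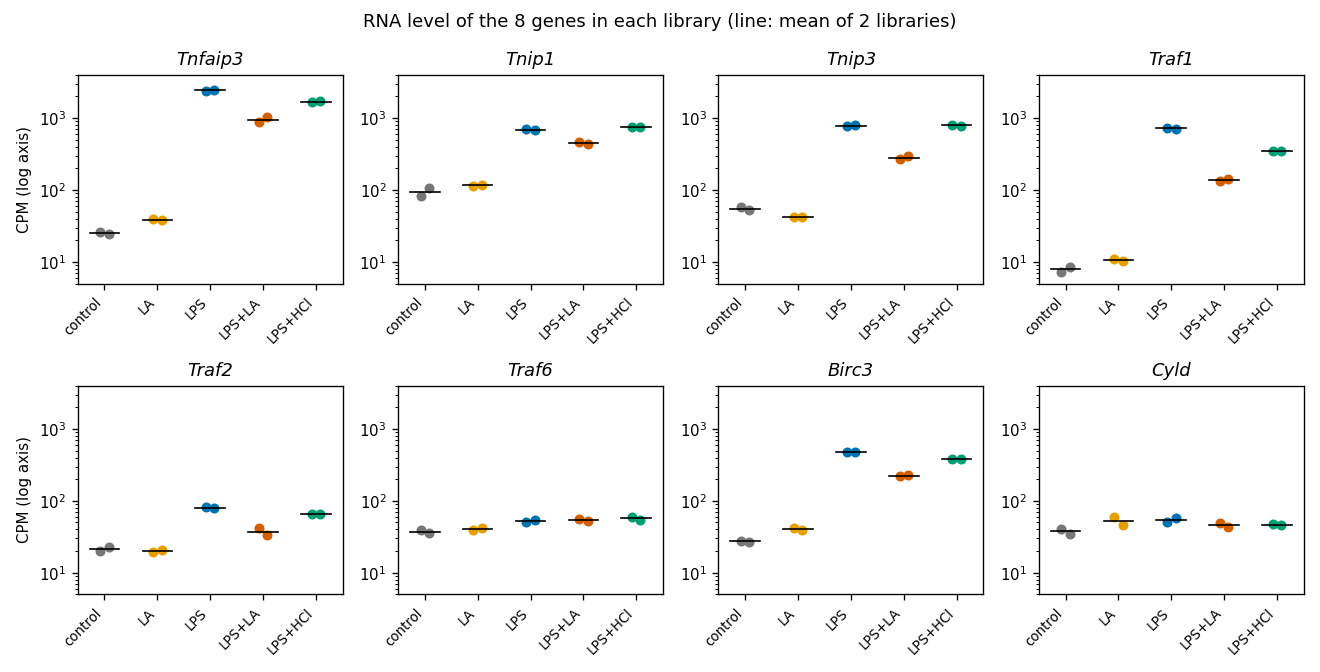
RNA level of each gene in every library, in CPM on a log axis, with points for the 2 libraries of a group and a line at their mean. Tnfaip3 and Traf1 rise furthest with LPS, while Traf6 and Cyld stay between 35.1 and 59.5 CPM in all 10 libraries.

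The first comparison asked what LPS alone did. In LPS 6 genes rose by more than 3-fold over control, led by the genes for A20 and TRAF1, and Traf6 and Cyld moved little. All 8 were called higher by edgeR's quasi-likelihood test at an adjusted p below 0.05 (Benjamini-Hochberg over all genes tested), where 32.4% of 12213 genes were called higher. The median log2 change was 3.35 for the 8 genes and -0.05 for all genes. Scaling to total counts, without TMM, lowered every log2 change in this contrast by about 0.72. Under it 7 of the 8 were called, 6 higher and Traf6 lower, where 14.4% of all genes were called higher and 67.9% lower.

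Tnfaip3 (NCBI Gene 21929, chr10:19000910-19015410) encodes A20, the ubiquitin-editing brake on NF-kB. Its control libraries held 25.9 and 24.7 CPM and its LPS libraries 2390.0 and 2457 CPM. The replicates lay close together and the groups far apart. The log2 fold change was 6.58 (SE 0.09, edgeR adjusted p = 4.75e-25), a 95.7-fold rise, and the ratio in the deposited FPKM, which follow total counts, was 58.1.

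Traf1 (NCBI Gene 22029, chr2:34941750-34961812), whose product lacks the ligase domain of other TRAFs, went from 7.36 and 8.42 CPM to 740.1 and 701 CPM (log2 6.51, SE 0.09, edgeR adjusted p = 1.13e-24). Both genes stood at the 99.0th percentile of change among all tested genes. Birc3 (NCBI Gene 11796, chr9:7847468-7873205), the gene for the ligase cIAP2, had 28 and 26.9 CPM in control and 482 and 483 CPM in LPS (log2 4.14, SE 0.08). Its 2 LPS libraries were almost identical.

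The genes for the A20-binding proteins rose together but from different bases. Tnip3 (NCBI Gene 414084, chr6:65590398-65634040) had 58.1 and 52.2 CPM in control and 769 and 799 CPM in LPS (log2 3.83, SE 0.08). Tnip1 (NCBI Gene 57783, chr11:54910787-54962956), already the highest at rest, went from 83.1 and 105 CPM to 700.3 and 681 CPM (log2 2.88, SE 0.09). Tnip1 had the widest control replicates of the LPS-induced genes, with an SD of 15.3 CPM around a mean of 93.9.

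Traf2 (NCBI Gene 22030, chr2:25517982-25546940), the ligase adaptor of TNF receptors, rose less, from 20.0 and 22.5 CPM to 81.5 and 78.4 CPM (log2 1.91, SE 0.11). For Traf6 (NCBI Gene 22034, chr2:101678420-101701668) the values were 38.7 and 35.7 CPM in control and 51.2 and 54.6 CPM in LPS. For the deubiquitinase gene Cyld (NCBI Gene 74256, chr8:88696878-88751946) they were 40.5 and 35.1 CPM against 51.5 and 58.0 CPM. The log2 changes of Traf6 (0.51, SE 0.09) and Cyld (0.53, SE 0.11) passed the test with TMM scaling, but with total-count scaling they turned to -0.21 (adjusted p = 0.0417) and -0.19 (adjusted p = 0.121), so their direction rests on the scaling. The other 6 genes kept log2 changes of at least 1.19 under every alternative run.

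**Figure D2:**
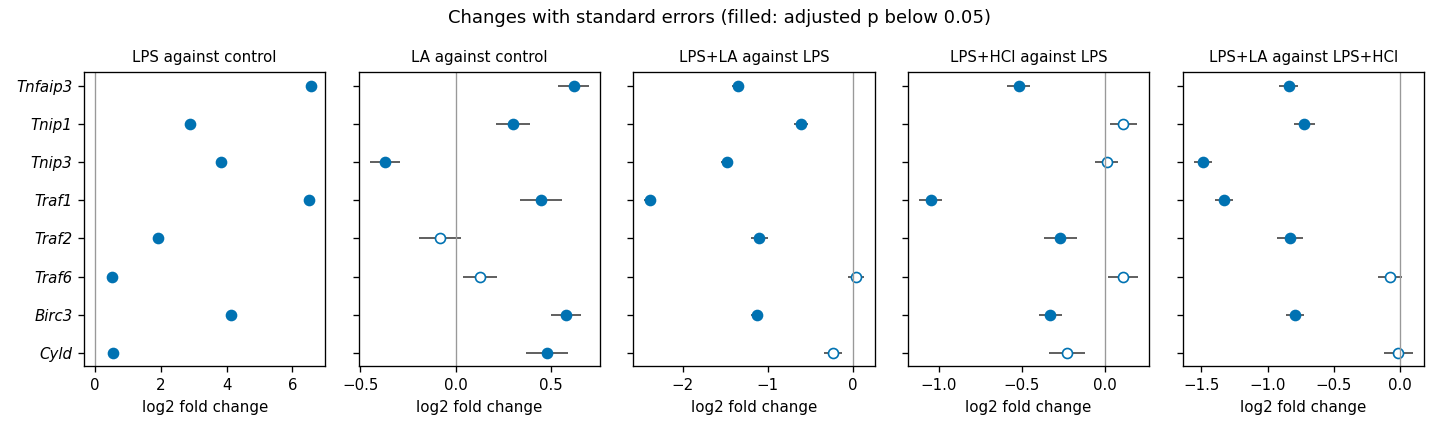
Log2 fold change of each gene in 5 comparisons, from edgeR with TMM scaling, with bars of 1 standard error and filled points where the adjusted p was below 0.05; the horizontal scales differ between panels. Traf1 falls furthest in LPS+LA against LPS, and Tnip3 is called lower in LPS+LA and is not called in LPS+HCl against LPS.

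LA alone asked whether lactic acid moved these genes without LPS. Small rises were led by Tnfaip3 and Birc3, and Tnip3 fell. At the same threshold 5 genes were called higher and 1 lower, where 20.4% of all genes were called higher and 17.9% lower. Tnfaip3 had 39.0 and 38.9 CPM in LA (log2 0.62, SE 0.08, edgeR adjusted p = 2.75e-06) and Birc3 42.2 and 39.9 CPM (log2 0.58, SE 0.08, edgeR adjusted p = 2.70e-06), in both cases above both control libraries. These 2 rises stayed past the threshold in all 17 alternatives, at log2 0.51 to 0.65 for Tnfaip3 and 0.47 to 0.62 for Birc3.

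Cyld changed by log2 0.48 (adjusted p = 0.00131), with 58.7 and 46.8 CPM in LA, and Traf1 by 0.45 (adjusted p = 0.00170), with 11.1 and 10.4 CPM. Tnip3 held 42.7 CPM in each LA library and fell by 0.37 on the log2 scale (edgeR adjusted p = 0.000658). Tnip1 passed the test at log2 0.30 (adjusted p = 0.00765), but its call was lost without control replicate 1 (log2 0.14, adjusted p = 0.210), one of the libraries with neuron transcripts, and also without LA replicate 2 (0.25, adjusted p = 0.0595) and with total-count scaling (0.19, adjusted p = 0.0667). The call of Traf1 was lost when only control and LA were fitted (adjusted p = 0.0586). Traf2 (log2 -0.08, SE 0.11) and Traf6 (0.13, SE 0.09) did not pass.

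Adding LA to LPS lowered the RNA of 6 of the 8 genes, most of all Traf1. Traf1, Tnip3, Tnfaip3, Birc3, Traf2 and Tnip1 were called lower in LPS+LA against LPS and none was called higher, where 29.7% of all genes were called lower and 29.2% higher. The median log2 change of the 8 was -1.11, against 0.03 for all genes. Total-count scaling moved the median of all genes up by 0.40, kept the same 6 genes lower and called Traf6 higher, where 16.6% of all genes were then called lower and 50.8% higher.

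Traf1 had 135 and 142 CPM in LPS+LA, below both LPS libraries by a wide margin and still above every control library. The log2 change was -2.38 (SE 0.07, edgeR adjusted p = 5.07e-18), a 5.21-fold fall, and 18.3% of the LPS-induced rise in CPM was left. Tnip3 had 267 and 296 CPM (log2 -1.48, SE 0.07), which left 31.0% of its rise. Tnfaip3 had 873 and 1023 CPM, the widest pair of its groups, at log2 -1.35 (SE 0.07), which left 38.5%.

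Birc3 had 218 and 225 CPM (log2 -1.12, SE 0.07) and kept 42.6% of its rise. For Traf2 the libraries held 41.3 and 33.2 CPM (log2 -1.10, SE 0.10), and 27.3% of the rise was left. Tnip1 fell least, to 470.3 and 433 CPM (log2 -0.61, SE 0.08, edgeR adjusted p = 9.56e-07), with 59.9% left. On the deposited FPKM scale the share left was larger, from 23.5% for Traf1 to 82.1% for Tnip1. Each of the 6 genes was called higher in LPS+LA than in control by edgeR's test, as were 26.4% of all genes.

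Traf6 (56.7 and 52.1 CPM) and Cyld (49.2 and 43.9 CPM) did not pass this test. Traf6 differed by log2 0.04 (SE 0.09, edgeR adjusted p = 0.739), and by 0.44 (adjusted p = 0.000275) with total-count scaling. Cyld differed by -0.23 (SE 0.11, adjusted p = 0.0760), and over the alternatives its value ran from -0.31 to 0.17 with adjusted p from 0.0374 to 0.441.

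LPS still raised most of these genes in the presence of LA. In LPS+LA against LA 7 of the 8 were called higher, where 15.9% of all genes were, and Cyld was not (log2 -0.18, SE 0.11). With total-count scaling Cyld was called lower (-0.39, edgeR adjusted p = 0.00658), and without LA replicate 2 its change was -0.34. The log2 changes were 4.61 for Tnfaip3 (SE 0.08), 3.68 for Traf1 (SE 0.09), 2.72 for Tnip3 (SE 0.08) and 2.43 for Birc3 (SE 0.07). Tnip1 rose by 1.97 (SE 0.09), Traf2 by 0.89 (SE 0.11) and Traf6 by 0.42 (SE 0.09), the last of which missed the threshold with total-count scaling (0.21, adjusted p = 0.0658).

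The HCl group addressed acid without added lactate. HCl lowered 4 of the 8 genes against LPS, by less than LA did, and the genes for both A20-binding proteins did not pass the test. Of the 8 genes 4 were called lower and none higher, where 20.8% of all genes were lower and 18.0% higher. Traf1 fell furthest here too, to 346 and 349 CPM (log2 -1.05, SE 0.07, edgeR adjusted p = 2.15e-11), with 47.7% of its rise left. Tnfaip3 had 1663 and 1723 CPM (log2 -0.52, SE 0.07), which left 69.5%.

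Birc3 had 379 and 386 CPM (log2 -0.33, SE 0.07, edgeR adjusted p = 0.000270), a fall that did not pass with total-count scaling (-0.10, adjusted p = 0.221). Traf2 had 66.3 and 65.9 CPM (log2 -0.27, SE 0.10, adjusted p = 0.0318), and its call was lost with DESeq2's Wald test (adjusted p = 0.0547), with total-count scaling (-0.04, adjusted p = 0.774) and without any one of the LPS or LPS+HCl libraries (adjusted p from 0.0816 to 0.165). Tnip3 (809 and 771 CPM) overlapped the LPS libraries, with a log2 change of 0.01 (SE 0.07, adjusted p = 0.915). Tnip1 (740.2 and 748 CPM) lay above both LPS libraries at log2 0.11 (SE 0.08, adjusted p = 0.318). With total-count scaling, which moved the median of all genes up by 0.24 here, Tnip1 (0.34), Tnip3 (0.25) and Traf6 (0.34) were called higher, as were 37.1% of all genes, with 10.7% lower.

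Set directly against LPS+HCl, LPS+LA held less RNA of the same 6 genes. All 6 were called lower, where 22.5% of all genes were lower and 18.4% higher, and this held under every alternative run. Tnip3 differed most, by log2 -1.49 (SE 0.07, edgeR adjusted p = 1.07e-13), followed by Traf1 at -1.33 (SE 0.07) and Tnfaip3 at -0.84 (SE 0.07). Traf2 (-0.83, SE 0.10), Birc3 (-0.79, SE 0.07) and Tnip1 (-0.72, SE 0.08) were alike in size. Traf6 (-0.07, SE 0.09) and Cyld (-0.01, SE 0.11) did not pass. Since the pH with LA is not stated, lactate and a difference in acidity between these groups cannot be told apart.

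The LA effect itself was then compared with and without LPS (an interaction term). Its log2 difference was below 0 for 7 of the 8 genes at an edgeR adjusted p below 0.05, where 23.9% of all genes were called lower and 20.4% higher (44.3% in all). Traf1 and Tnfaip3 had the largest differences, -2.83 (SE 0.13) and -1.98 (SE 0.11). Both genes were raised by LA without LPS and lowered by it with LPS. Traf6 did not pass (-0.09, SE 0.13).

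With TMM scaling the 5 groups fell in a set order for most of the genes. For Tnfaip3, Traf1 and Birc3 the order was LPS, LPS+HCl, LPS+LA, LA and control, and each neighbour differed from the next by edgeR's test. Traf2 had LPS, LPS+HCl and LPS+LA in the same order, and its control and LA libraries were not separated (adjusted p = 0.606). For Tnip1 and Tnip3 the first 2 places, LPS+HCl and LPS, were not separated, LPS+LA followed, and LA was above control for Tnip1 and below it for Tnip3. For Traf6 the 3 LPS groups were not separated from each other, nor was LA from control (adjusted p = 0.309). For Cyld only control, the lowest with TMM scaling, differed from its neighbour LPS+LA (adjusted p = 0.0283). Its LA and LPS+HCl libraries, also neighbours, were not separated (adjusted p = 0.189). In the deposited FPKM control was not the lowest for either gene. Cyld had 5.96 in control, 5.83 in LPS+LA and 5.22 in LPS, and Traf6 had 7.78 in control and 6.73 in LPS. Among all genes 26.4% were called higher in LPS+LA against control and 31.8% in LPS against LA, the other pairs behind these calls.

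By the likeness of their pattern over the 10 libraries (Pearson's r of log2(CPM + 1), 8939 genes reaching 10 CPM in some group), the closest genes differed by member. The groups share libraries and depth, so r is given as a description. Nearest to Birc3 was Cflar (r = 0.9998), which encodes the caspase inhibitor c-FLIP and averaged 57.2 CPM in control against 1113, 473 and 824 CPM in LPS, LPS+LA and LPS+HCl. Oaf came second for Birc3 (0.9987) and for Tnfaip3 (0.9989), and Stx11, a membrane fusion gene, next for Birc3 (0.9984).

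Nearest to Tnfaip3 was Irf1 (0.9994), an interferon regulatory factor, at 29.7 CPM in control and 798, 375 and 555 CPM in LPS, LPS+LA and LPS+HCl, and Cd69, an activation antigen, followed Oaf (0.9984). For Traf1 the closest were Crlf3 (0.9987), the interleukin gene Il1a (0.9986) and Cd274, which encodes PD-L1 (0.9982). With LA added to LPS, Il1a went from 2013 to 88.2 CPM and Cd274 from 1132 to 196 CPM. Tnip1 ran with Relb, an NF-kB subunit gene (0.9981), Ncf1 (0.9978) and Foxp4 (0.9975).

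Tnip3 ran with Marcks (0.9967), Foxp1 and Ifi203 (both 0.9966), and Traf2 with Pstpip2 (0.9963), Tbc1d1 (0.9961) and the adaptor gene Myd88 (0.9960). Likeness was lower for Traf6, with Sestd1 (0.9842), Herpud2 (0.9789) and Hacd2 (0.9781), and for Cyld, with Selenof (0.9535), Bicd2 (0.9194) and Suco (0.9168). Among the members themselves, Tnfaip3 and Birc3 were closest (0.997), and Cyld had r of at most 0.467 with any other.

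The other genes of the pathway, 53 in 5 lists, were all tested. In LPS against control 36 were called higher and 8 lower, with a median log2 change of 0.75 against -0.05 for all genes. With total-count scaling the split was 23 higher and 23 lower, where 14.4% of all genes were called higher and 67.9% lower. The count of rises thus depends on the scaling, and so does the share of all genes beside it. In LPS+LA against LPS 35 were called lower and 11 higher (27 and 17 with total-count scaling), at a median of -0.78 against 0.03. With total-count scaling 16.6% of all genes were lower there and 50.8% higher. LPS+HCl against LPS gave 24 lower and 9 higher. Total-count scaling turned this to 14 lower and 18 higher, where 10.7% of all genes were lower and 37.1% higher. In LA against control 17 were higher and 10 lower, with total-count scaling 13 were higher and 19 lower, and without both libraries with neuron transcripts 9 were higher and 9 lower. These counts stand against the shares of all genes given with each comparison above, and the 18 of 53 higher in LPS+HCl with total-count scaling against 37.1% of all genes. For LA against control no share of all genes is given with total-count scaling or without both libraries with neuron transcripts. The counts under those settings are therefore descriptions.

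**Figure D3:**
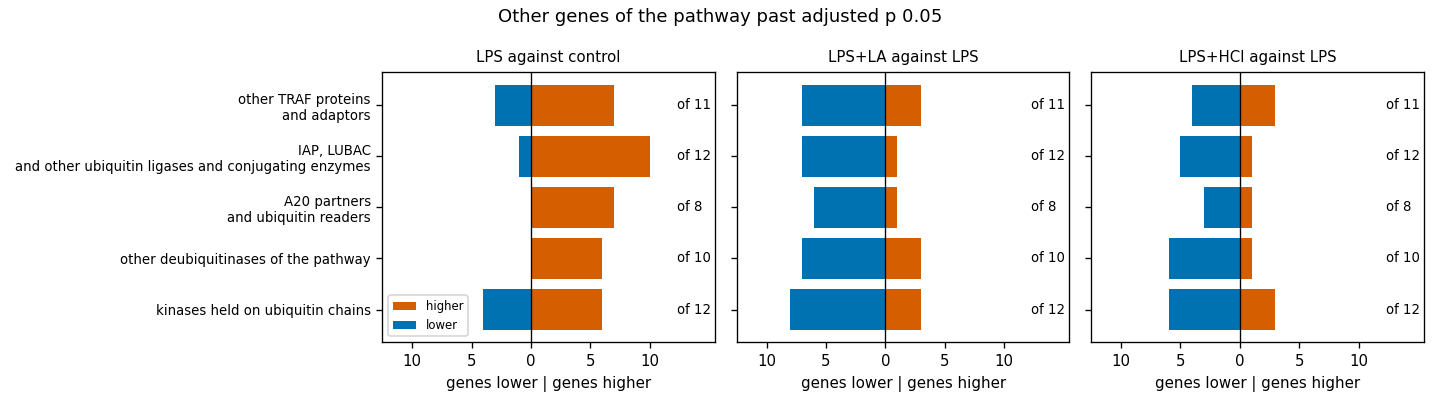
Number of genes of each list called higher (right) or lower (left) at an edgeR adjusted p below 0.05 with TMM scaling, in 3 comparisons, with the number tested at the right of each bar. In LPS+LA against LPS the bars to the left are longer in all 5 lists with this scaling. With total-count scaling the ligases were 5 lower and 5 higher and the deubiquitinases 4 lower and 3 higher, where 16.6% of all genes were lower and 50.8% higher.

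Among other TRAF proteins and adaptors 7 of 11 rose with LPS and 3 fell, and 7 were lower and 3 higher in LPS+LA against LPS. Over all genes 32.4% rose and 32.4% fell with LPS, and 29.7% were lower and 29.2% higher with LA added. Trafd1, a zinc finger gene of the TRAF type, rose from 83.6 ± 9.40 to 767 ± 1.98 CPM and stood at 208 ± 19.5 CPM with LA. Myd88, the adaptor of Toll-like receptors, went from 68.2 ± 3.85 to 466 ± 6.56 and 144 ± 2.52 CPM, and Tank, a TRAF-binding scaffold, from 41.5 ± 1.70 to 197 ± 1.00 and 97.5 ± 4.12 CPM. Traf4 went the other way, from 1.33 ± 0.733 to 0.229 ± 0.0495 and 1.57 ± 0.506 CPM, all of them low levels.

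Of the ligases and conjugating enzymes 10 of 12 rose with LPS and 1 fell, and 7 were lower and 1 higher with LA added (5 and 5 with total-count scaling). Peli1, a ligase of the Toll-like receptor pathway, rose from 26.0 ± 2.74 to 914 ± 4.07 CPM and stood at 355 ± 5.96 CPM in LPS+LA. Rnf31, the catalytic subunit of the linear ubiquitin ligase, went from 40.8 ± 4.01 to 317 ± 1.97 and 102 ± 1.04 CPM. Birc2, the gene for cIAP1, went from 9.30 ± 0.395 to 68.8 ± 2.42 and 28.7 ± 2.94 CPM, in the same order as Birc3 over these 3 groups. With total-count scaling the ligase list gave 4 higher and 5 lower with LPS. That scaling called 14.4% of all genes higher and 67.9% lower with LPS, and 16.6% lower and 50.8% higher with LA added. The same shares stand beside the counts with total-count scaling in the lists below.

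The A20 partners and ubiquitin readers had 7 of 8 higher and none lower with LPS (4 and 3 with total-count scaling), and 6 lower and 1 higher with LA added. Tab2, which carries the kinase TAK1 onto ubiquitin chains, went from 243 ± 4.66 to 912 ± 17.8 CPM and to 361 ± 19 CPM in LPS+LA. Tax1bp1, an A20 adaptor, went from 137 ± 6.47 to 304 ± 7.05 and 181 ± 0.819 CPM, and Rnf11, another partner of A20, from 31.3 ± 4.19 to 64.1 ± 2.95 and 41.5 ± 0.961 CPM. Optn, a ubiquitin-binding autophagy receptor, had 15.9 ± 0.0621, 41.3 ± 4.37 and 16.9 ± 0.975 CPM, so its LPS+LA level lay close to control.

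Other deubiquitinases had 6 of 10 higher and none lower with LPS (4 and 5 with total-count scaling), and 7 lower and 3 higher with LA added (4 and 3 with total-count scaling). Usp18, which removes the ubiquitin-like ISG15, had the deepest fall of the list with LA added, from 673 ± 3.21 to 76.6 ± 9.13 CPM (log2 -3.14, edgeR adjusted p = 1.06e-18). Usp25 went from 666 ± 17.6 to 196 ± 2.64 CPM and Otud1 from 176 ± 5.92 to 78.1 ± 6.62 CPM. For Cyld the change in this comparison was -0.23, as given above.

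Of the kinases held on ubiquitin chains 6 of 12 were higher and 4 lower in LPS (32.4% of all genes in each direction), and 8 lower and 3 higher in LPS+LA against LPS (5 higher and 6 lower in LPS with total-count scaling). Ripk2, the kinase of NOD receptors, went from 15.9 ± 0.347 to 548 ± 16.8 and 132 ± 10.8 CPM, Irak2 from 45.5 ± 2.64 to 520.4 ± 25.4 and 220.0 ± 0.195 CPM, and Ikbke from 69.9 ± 6.97 to 813 ± 4.88 and 246 ± 28.5 CPM. Map3k14 ran against this pattern. It encodes NIK, the kinase of the noncanonical NF-kB pathway, whose protein the TRAF and cIAP ligases keep low. Its mean was 28.5 ± 4.59 CPM at rest and 97.1 ± 6.89 with LA. Under LPS it was 8.06 ± 2.15 CPM, with 86.3 ± 2.43 CPM once LA was added and 24.4 ± 0.0457 CPM with HCl. It fell with LPS (log2 -1.83), rose with LA alone (1.77) and was higher in LPS+LA than in LPS (3.42, edgeR adjusted p = 3.74e-15).

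A merged site with a peak in all 12 samples, control included, lay over the start of 7 of the 8 genes, much as for the 85.9% of 9797 tested genes with a listed start that had one. The site over the Tnfaip3 start was 1383 bp wide (chr10:19014495-19015877, mm10) and covered all 250 printed bases. The printed bases of Tnip1 and Tnip3 were covered too, and 163 of the 215 of Birc3. Traf1 had no peak over its RefSeq start in any sample, and its nearest site, centred 1.69 kb upstream, had a peak in all 12. The merged sites over the starts of Tnfaip3, Tnip1, Tnip3 and Birc3 had a peak in every sample with and without LPS. Whether each sample's own peak covered the start was not checked. Peak calls give no height, so a change in signal at the start was not tested.

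Near 4 of the 8 genes the number of called peaks was higher with LPS. Within 50 kb of the gene bounds Tnfaip3 had 14, 12 and 13 peaks in control and 22, 23 and 19 in LPS, and 16, 13 and 16 in LA against 19, 20 and 20 in LPS+LA. The samples with LPS all lay above those without. The mean difference with LPS was 6.50 peaks (two-sided exact permutation test within the state of LA, p = 0.005, the smallest it can give with 400 permutations, adjusted p over all genes 0.0378). Tnip3 gained 5.50, Birc3 4.50 and Tnip1 2.83 peaks at the same exact p.

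These 4 genes were called to have more peaks, as were 13.2% of 12165 genes, while 0.0822% had fewer. Traf1 and Traf2 (0.833 each), Traf6 (0.667) and Cyld (0.5) did not pass, and the median difference over all genes was 1.17 peaks. Peak numbers per sample also rose with LPS over the whole genome, from 80386 to 86566 in control to 88807 to 100667 in LPS. With an equal number of top-scoring peaks per sample, Tnfaip3 (4 peaks) and Birc3 (3.67) kept the smallest exact p. Its adjusted value was 0.0608, so no gene could pass and this setting could not decide on their calls. Tnip3 had 1.67 peaks there, and Tnip1 turned to -0.667. None of the 4 calls held within 10 kb of the gene bounds, where Tnfaip3 gained 2.67 peaks (adjusted p = 0.0616). The share of all genes called within 10 kb is not given here. Exchanging labels only between same-numbered samples (replicate block) could not decide on the 4 calls. Each of the 4 genes had the smallest exact p that this permutation test can give, 0.0312 in 64 arrangements. Adjusted, this was 0.150, and 0 genes of 12165 passed.

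**Figure D4:**
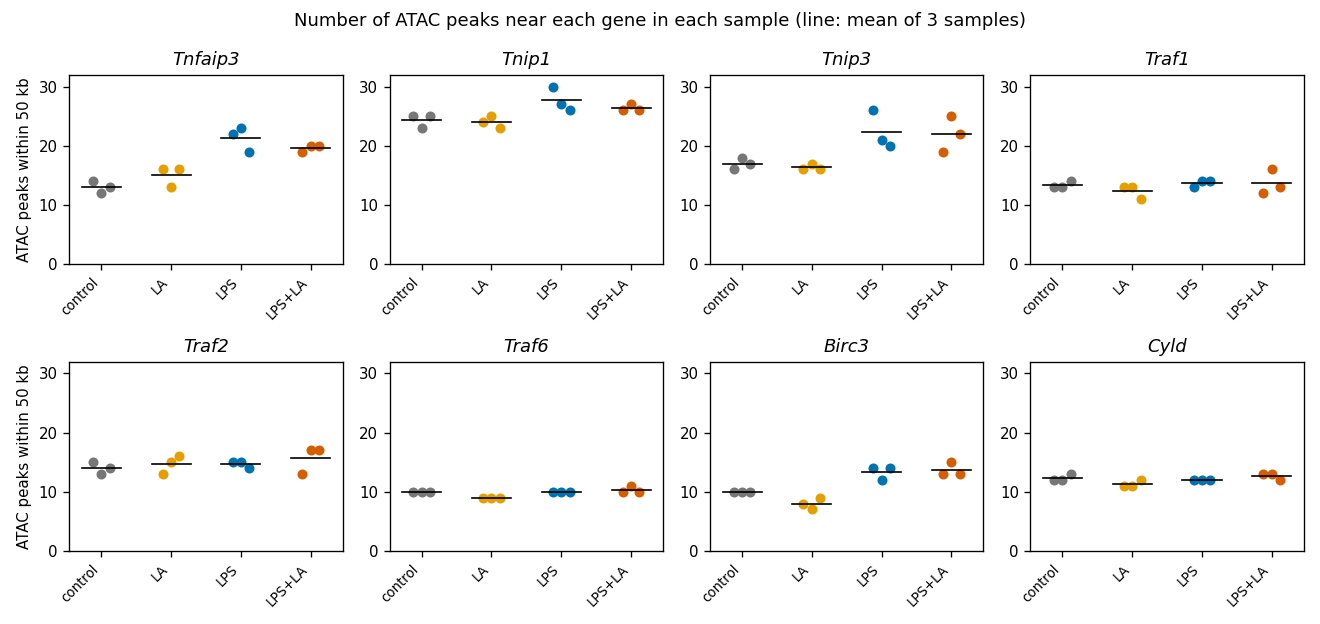
Number of ATAC peaks within 50 kb of the bounds of each gene in each of 12 samples, with a line at the mean of 3. For Tnfaip3 the 6 samples with LPS hold 19 to 23 peaks and the 6 without hold 12 to 16, while Traf6 holds 9 to 11 throughout.

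Counted site by site, 22 of the 158 sites near the 8 genes with a peak in control or LPS were gained with LPS (a peak in all 3 LPS samples and in no control sample), and 7 were lost. Of all sites 9.05% were gained and 2.67% lost. Tnfaip3 had the most, with 7 gained of 24 and 0 lost. They lay 3.83, 11.4 and 30.8 kb upstream of the start and 15.6, 16.4, 27.6 and 57.3 kb downstream of it, beyond the end of the gene. The nearest upstream site (chr10:19019087-19019383, mm10) and the widest downstream one (chr10:18999271-19000315) had peaks in all 6 samples with LPS and in none of the 6 without.

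Birc3 gained 4 of 18 sites, at 6.86 and 23.1 kb upstream of its start, 10.0 kb into the gene and 75.0 kb downstream, and each had a peak in all 6 samples with LPS and no other. Tnip1, Tnip3 and Traf1 gained 3 each, Cyld 2, and Traf2 and Traf6 none. One of the sites of Cyld lay within the bounds of the neighbouring gene Nod2, and one of those of Traf1 within Hc, so nearness does not tie a site to a gene. The lost sites lay near Tnip3, Traf1, Birc3 and Cyld. Within 10 kb of the gene bounds 11 sites were gained and 6 lost, and within 100 kb 35 were gained and 9 lost. With an equal number of top-scoring peaks per sample 18 were gained and 13 lost. The number of sites examined under these settings is not given here, nor is the share of all sites among top-scoring peaks. Whether these counts exceed a genome-wide share was not tested.

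**Figure D5:**
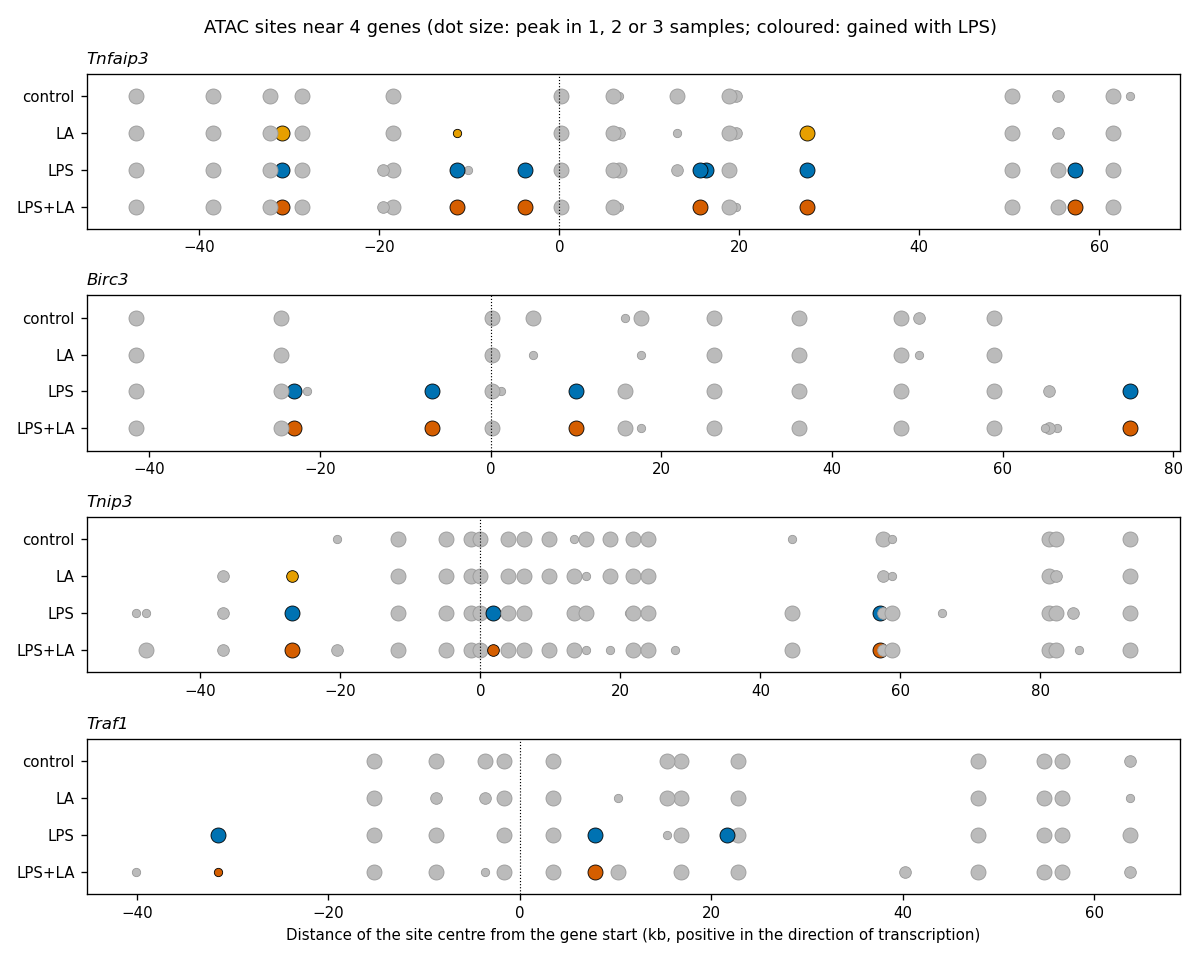
Merged ATAC sites near 4 genes by distance of their centre from the gene start in kb, with a row per group, dot size for peaks in 1, 2 or 3 samples, and colour for sites gained in LPS against control; the horizontal scales differ. Of the 7 coloured sites of Tnfaip3 in LPS, 6 are also present in LPS+LA, and all 4 of Birc3 are.

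LA left most of these sites in place. Of the 22 sites gained with LPS 16 had a peak in all 3 LPS+LA samples (72.7%, against 54.8% of the 10579 gained over the genome), and 3 had none (13.6%, against 19.7%). Tnfaip3 kept 6 of 7, Birc3 4 of 4, Tnip1 and Tnip3 2 of 3 each, Cyld 1 of 2 and Traf1 1 of 3. The sites without a peak in LPS+LA were 16.4 kb downstream of the Tnfaip3 start, 37.5 kb into Tnip1 and 21.7 kb downstream of the Traf1 start. In LPS+LA against LPS 3 of 163 sites near the genes were gained and 3 lost, against 2.41% and 2.46% of all sites.

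In LA against control 2 of 131 sites were gained and 1 lost, against 1.96% and 3.04% of all sites. Both gained sites were near Tnfaip3, at 27.6 kb downstream (chr10:18987428-18988231, mm10) and 30.8 kb upstream (chr10:19045948-19046455). They had peaks in every LA, LPS and LPS+LA sample and in no control sample. The lost site, 60.2 kb downstream of the Cyld start, had a peak in control alone. In the exact permutation test for an LA effect on peak numbers 0 of the 8 genes passed after adjustment, as did 0% of 12165 genes, while 0.567% of genes had more and 0.806% fewer peaks at the smallest unadjusted p. Samples with and without LA were sequenced on different lanes, so in ATAC the LA effect and the lane cannot be told apart. The LPS effect lay within lanes, since control and LPS shared lane 5, and LA and LPS+LA lane 6. LPS+LA against LA gained 15 and lost 1 of 153 sites (6.98% and 0.562% of all sites).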

How the data were processed

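RNA was measured in 10 libraries and open chromatin in 12 ATAC-seq samples, grouped by their labels. The authors' table gave each gene an expected count, FPKM and TPM in every library. The submitters' processing notes name HISAT and Bowtie2 (GRCm38.p6), while the sources used here do not give the counting tool or its use of strand. Reads of overlapping genes, such as Gm52552 across part of Traf1, therefore cannot be told apart. The deposited expected counts, 6.07% of them not whole (tolerance 0.001), were rounded. Deposited FPKM and TPM served to compare levels between genes.

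Genes were filtered by filterByExpr (count 10, total 15), and 12213 of 16059 were tested. Groups were compared over all 10 libraries with edgeR 4.0.16 (TMM, robust quasi-likelihood, two-sided, Benjamini-Hochberg over all tested genes, threshold 0.05). Because TMM factors ran from 0.759 to 1.27, total-count scaling was run beside it. Replicate pairs differed by more than sampling noise. In simulated counts of 12213 genes for LPS+LA against LPS, 37.5% of 48 genes changed by log2 0.5 were recovered. The simulation gave every gene the same preset spread, not estimated from these data, so this share does not give the power of the tests here.

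ATAC peaks were called per sample and deposited with a score, the authors' own value, used only to rank peaks. The file headers name the lane, and the submitters' processing notes list MACS2 2.0.10, BWA 0.5.9, Picard and mm10. The sources used here do not say whether reads were shifted. Peaks were merged into 127890 sites at an overlap of 1 bp (Python 3.11.15). Adjustment had been planned over 16 ATAC tests and was made over all genes.

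Named genes were the 8 members, per list the 3 called genes with the smallest adjusted p in LPS against control and the 2 with the largest change in LPS+LA against LPS, and the 3 genes nearest to each member. The members and lists were chosen with earlier results of these data known. Alternatives were DESeq2 1.42.0 (size factors, Wald test), total counts, no filter, a replicate block, fitting the compared groups alone and leaving out each library, and, chosen after seeing the data, leaving out both libraries with neuron transcripts and a replicate block for ATAC.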

Additional observations from a re-analysis of the deposited data

Results flagged for a closer look

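The effect of LA differed with and without LPS for 7 of the 8 genes, by the interaction term of edgeR (LA effect with LPS minus LA effect without it), where 44.3% of all genes passed this test. The differences, on the log2 scale, were -2.83 for Traf1 (SE 0.13), -1.98 for Tnfaip3 (SE 0.11), -1.70 for Birc3 (SE 0.10), -1.11 for Tnip3 (SE 0.11), -1.02 for Traf2 (SE 0.15), -0.91 for Tnip1 (SE 0.12) and -0.71 for Cyld (SE 0.16). For Tnfaip3, Traf1, Birc3 and Tnip1 LA raised the RNA without LPS and lowered it with LPS, while Tnip3 was lower with LA in both states and by more with LPS. The rise of Tnip1 without LPS was lost without control replicate 1 (adjusted p = 0.210), without LA replicate 2 (0.0595) and with total-count scaling (0.0667), and that of Traf1 when only control and LA were fitted (0.0586). The difference of Traf6 was -0.09 (SE 0.13, adjusted p = 0.647). Total-count scaling moved the median of all genes by 0.51 in this contrast. Under it Cyld no longer passed (-0.20, adjusted p = 0.275), and Traf6 turned to 0.43 (adjusted p = 0.00879). The cause was not tested.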

How the results depend on the processing

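For RNA, the number of members called stayed within 1.5 times in each of 7 comparisons and 17 alternatives. This number adds both directions and does not show which members were called. In LPS+HCl against LPS, total-count scaling lost the calls of Traf2 and Birc3 and called Tnip1 (0.34), Tnip3 (0.25) and Traf6 (0.34) higher. In the interaction it lost the call of Cyld and called Traf6 higher. In LPS+LA against LA it called Cyld lower (-0.39) and lost the call of Traf6 (0.21). Total-count scaling, which takes out the TMM factors, reversed Traf6 in LPS against control (-0.21), in LPS+LA against LPS+HCl (0.10) and in the interaction (0.43), and Cyld in LPS against control (-0.19), LPS+LA against LPS (0.17), LPS+HCl against LPS (0.01) and LPS+LA against LPS+HCl (0.16). It also moved the count of all genes called higher to 1761 from 3963 and lower to 8289 from 3951 in LPS against control, to 6208 from 3569 and 2032 from 3622 in LPS+LA against LPS, to 4535 from 2201 and 1310 from 2541 in LPS+HCl against LPS, and to 5917 from 2492 and 1294 from 2917 in the interaction. In LPS+LA against LPS+HCl it gave 3947 higher in place of 2243, and in LPS+LA against LA 4260 lower in place of 1785. Without LPS+HCl replicate 2 the 2243 became 1477, and without both libraries with neuron transcripts 1381. Without those 2 libraries the calls of Tnip1 in LA against control (log2 0.14) and of Traf2 in LPS+HCl against LPS (-0.27) were lost.

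Values near 0 changed sign elsewhere: Tnip3 in LPS+HCl against LPS was -0.00 with DESeq2 size factors and -0.00 with DESeq2's Wald test, and -0.03 to 0.04 over single left-out libraries. Cyld in LPS+LA against LPS+HCl was 0.01 with no filter and -0.08 to 0.07 over left-out libraries. Traf6 in LPS+LA against LPS ran from -0.01 to 0.10 and Traf2 in LA against control from -0.16 to 0.00. Deviations of same-numbered libraries had correlations from -0.503 to 0.0495 over 10 pairs of groups. These values do not settle whether the replicate numbers pair the libraries, and the labels do not say. The replicate block gave the same counts of members called, 8 in LPS against control, 6 in LA against control, 6 in LPS+LA against LPS and 4 in LPS+HCl against LPS. The share of all genes called with this block is not given here, so these counts are descriptions. For ATAC, same-numbered samples had deviations correlated from -0.380 to 0.195 over 6 pairs of groups, which does not settle whether the numbers pair the samples. A replicate block was added after seeing the data. It exchanged labels within 64 arrangements (smallest p 0.0312), and 0 members and 0 genes passed in place of 4 members. Those 4 members had the smallest p, so the block could not decide on their calls.

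For ATAC, sites gained or lost near the members numbered 17 (10 kb) and 44 (100 kb) against 29 in LPS against control, 1 and 8 against 3 in LA against control, 13 (100 kb) against 6 in LPS+LA against LPS, and 9 (10 kb) against 16 in LPS+LA against LA. Left-out samples gave 3 to 8 for LA against control and 6 to 10 for LPS+LA against LPS. With equal numbers of top-scoring peaks the sites lost in LPS against control were 13, against 7 with all peaks. The sites examined under these settings are not given, so the counts are descriptions. Members called to have more peaks with LPS fell from 4 to 0 within 10 kb and to 0 with equal numbers of top-scoring peaks. With equal numbers no gene could pass, since the smallest exact p was 0.0608 once adjusted. For 10 kb no share of all genes is given. Over left-out samples 0 to 4 members were called, where fewer permutations raise the smallest p. Equal numbers of peaks also reversed Tnip1 (-0.667), Traf1 (-0.833), Traf2 (-0.333) and Traf6 (-0.333). Peak lists hold no read counts, and 2 libraries per RNA group limit each SD.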
